A study of Mus musculus with 11 samples.

Results

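Of 22376 HNF4A peaks called in wild-type mouse villi, 1441 (6.44%) were strong, carried H3K4me2, had no overlapping CDX2 peak and were not called again in Cdx2 knockout villi. A peak entered this set when its wild-type HNF4A score was above 125.98, which held for the strongest 30.0% of peaks, when it overlapped no peak of either wild-type CDX2 library and no HNF4A peak of the Cdx2 knockout, and when at least 1 wild-type H3K4me2 nucleosome was centred within 1 kb of its centre. The score is the one the authors deposited with each peak, and what it stands for is not stated there. These 1441 are called the lost peaks. They were chosen by measured values, so their strength, their lack of CDX2, their loss and their wild-type H3K4me2 are descriptions and were not tested. Lost means not called in the knockout list, and binding below the caller's limit may remain there. The main comparison set is the 3131 kept peaks, which met the same criteria except that an HNF4A peak of the Cdx2 knockout overlapped them.

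The data came from chromatin immunoprecipitation and sequencing of jejunal villus epithelium, which was released with EDTA and collected on a filter. The groups used were Cdx2 knockout (HNF4A and H3K4me2, 1 library each), Hnf4a knockout (CDX2 and H3K4me2, 1 library each), 2 double knockouts (H3K4me2, 1 library each) and wild type (HNF4A and H3K4me2, 1 library each, and CDX2, 2 libraries). All were from mice of 129xC57BL6 mixed background. Each library pooled the DNA of several immunoprecipitations, 10 to 20 ng in all, so a library gives no spread between animals. The sources used here do not give the age of the mice, how each gene was deleted or in which cells. The labels of both double knockouts contradict themselves on which gene was deleted together with Cdx2, so these libraries are named by their titles, Cdx2-Cdx1 and Cdx2-Hnf4a.

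HNF4A is a nuclear receptor that binds DNA as a homodimer and activates genes of lipid handling, nutrient transport and digestion in absorptive enterocytes. CDX2 is a homeodomain factor that specifies intestinal identity in the embryo and maintains it in the adult. H3K4me2, dimethylation of lysine 4 on histone H3, marks active and poised promoters and enhancers, and at a bound enhancer the marked nucleosomes typically flank the factor.

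The lists differed in length. There were 9676 HNF4A peaks in Cdx2 knockout and 22376 in wild type, and 5768 CDX2 peaks in Hnf4a knockout against 12121 and 7441 in the wild-type libraries. The H3K4me2 lists covered 26.7 Mb in Cdx2 knockout, 47.2 Mb in Hnf4a knockout, 29.2 Mb and 28.5 Mb in the double knockouts titled Cdx2-Cdx1 and Cdx2-Hnf4a, and 25.1 Mb in wild type. Each nucleosome has a score of 10 times the −log10 of a p-value, and the Hnf4a knockout list reached down to 1.7, while the lowest scores of the other lists lay between 50.1 and 51.3. Ratios and shares for Hnf4a knockout are therefore also given with every list cut at a score of 52. Counts at single sites are as deposited, and the Hnf4a knockout count at that cut is added.

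The stepwise selection shows how the set arose. Of all wild-type HNF4A peaks, 15636 (69.9%) were not called again in Cdx2 knockout. The strong peaks numbered 6716, and 2407 of them (35.8%) were not called again. Without a CDX2 peak there were 4932 strong peaks, of which 1656 were lost and 1441 of these carried H3K4me2. The other 215 had no wild-type nucleosome within 1 kb. Among strong marked peaks without CDX2, 1441 of 4572 (31.5%) were lost. The 1441 made up 59.9% of all strong lost peaks, and the rest had a CDX2 peak or no marked nucleosome.

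The lost peaks were the weaker end of the strong peaks. Their wild-type HNF4A score had a median of 168.77 and a highest value of 1100.53, against a median of 242.65 and a highest value of 3100 among kept peaks. They were also slightly narrower, with a median width of 418 bp against 454 bp. The share lost among strong marked peaks without CDX2 declined with the wild-type score. It was 50.3% at scores under 150 (458 of 911, 95% interval 47.0% to 53.6%), 44.4% at 150 to 200 (535 of 1205), 26.4% at 200 to 300 (298 of 1128), 15.2% at 300 to 500 (124 of 816) and 5.08% at 500 or more (26 of 512, 3.34% to 7.35%). These intervals, and all others below that are not called between-site intervals, cover counting error only.

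**Figure D1:**
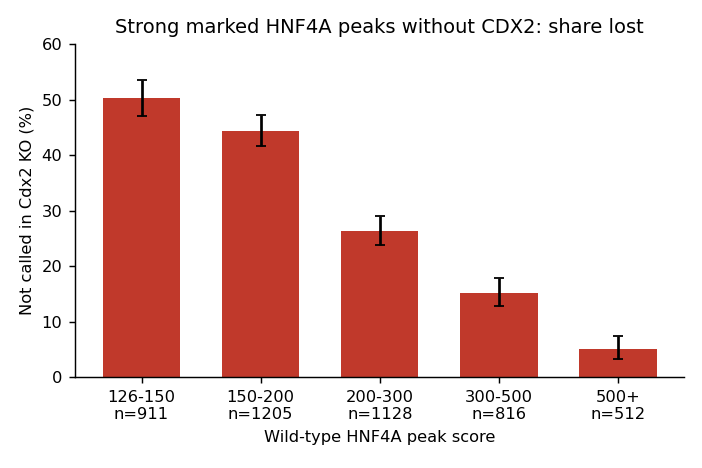
Share of strong marked HNF4A peaks without CDX2 that were not called in Cdx2 knockout (vertical axis, percent) by wild-type HNF4A score (horizontal axis), with exact 95% intervals. The share declined from 50.3% in the lowest score range to 5.08% in the highest.

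The next to lowest lost peaks scored 126.01 and 126.13, and the 3 peaks just under the minimum that met the rest of the rule had 125.98, 125.97 and 125.8. Kept peaks give the scale on which a loss can be read. The knockout score was 0.607 times the wild-type score (median) among kept peaks of wild-type score under 200, 0.473 times at 200 to 300, 0.411 times at 300 to 500 and 0.414 times at 500 or more. Kept peaks thus also had lower HNF4A scores in Cdx2 knockout than in wild type. No score in the knockout list was below 50, so a peak at the score minimum left the list once its ratio went under 0.397. A weaker set of lost peaks can therefore hold sites whose score declined no more than that of many kept peaks. For 219 lost peaks the lowest listed score would already be a ratio below the 5th percentile of all kept peaks, 0.190. For 2 it would be below the lowest ratio of any kept peak, 0.0558. Both counts follow from the wild-type score alone. Within the score ranges the 5th percentile of kept peaks was 0.331 under 200 and 0.230 at 200 to 300. It was 0.158 at 300 to 500 and 0.130 at 500 or more. Some lost peaks had a knockout call nearby. An HNF4A peak of the Cdx2 knockout lay within 250 bp of the edges of 37 of 1441 lost peaks, and within 1000 bp of 122. By centres, such a peak lay within 1 kb of 5.34% of lost peaks. The share was 8.13% at lost peaks below the score minimum that met the rest of the rule. At strong marked lost peaks with a CDX2 peak it was 6.40%.

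The strongest lost peaks are given as single examples. The highest score, 1100.53, belonged to a peak on chromosome 6 at 114346413 to 114347052 (build mm9, as are all positions here). Its nucleosomes within 1 kb numbered 2 in Cdx2 knockout, 9 in Hnf4a knockout, 2 and 0 in the double knockouts titled Cdx2-Cdx1 and Cdx2-Hnf4a, and 7 in wild type, and the nearest CDX2 peak was 62.1 kb away. The Hnf4a knockout count was also 9 with that list cut at a score of 52. H3K4me2 was thus lower in each library lacking Cdx2 and not in the one lacking Hnf4a alone.

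The peak on chromosome 17 at 86832141 to 86832758 had a score of 928.07, with 1 nucleosome in Cdx2 knockout, 3 in Hnf4a knockout, 0 in each double knockout and 1 in wild type. The peak on chromosome 11 at 116839585 to 116840084 (score 863.69) had 0 nucleosomes in Cdx2 knockout, 3 in Hnf4a knockout, 0 in each double knockout and 2 in wild type, and lay 123 kb from CDX2. With the Hnf4a knockout list cut at a score of 52, its count was 2 at each of them. These 2 sites held few wild-type nucleosomes, so a change at either rests on 1 or 2 calls. The peak on chromosome 4 at 115495868 to 115496535 (score 814.27) lay 0.958 kb from a CDX2 peak and had 6 nucleosomes in Cdx2 knockout, 9 in Hnf4a knockout, 8 and 0 in the double knockouts titled Cdx2-Cdx1 and Cdx2-Hnf4a, and 7 in wild type. Cut at 52, the Hnf4a knockout list had 7. Only the library titled Cdx2-Hnf4a was low there. The other 6 of the 10 highest-scoring lost peaks had between 0 and 6 nucleosomes in Cdx2 knockout and between 1 and 7 in wild type. Of all 10, 9 had fewer nucleosomes in Cdx2 knockout than in wild type and 1 had the same number. Several of these falls were of only 1 nucleosome. Over all lost peaks 54.5% had fewer, against 45.0% of all marked HNF4A peaks.

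H3K4me2 around the lost peaks was lower in Cdx2 knockout than in wild type. The mean was 3.15 nucleosomes within 1 kb in Cdx2 knockout and 3.89 in wild type, a ratio of 0.761 after scaling by the covered length of each list (counting interval 0.732 to 0.792, between-site interval 0.743 to 0.780). At kept peaks the means were 4.34 and 4.62 and the ratio was 0.882 (0.862 to 0.903). The ratio at lost peaks was 0.863 times that at kept peaks (0.825 to 0.903, between sites 0.841 to 0.886). The knockout HNF4A list divided the 2 sets, and the H3K4me2 lists of the knockouts took no part in the choice. Every site in both sets had to hold at least 1 wild-type nucleosome, while a knockout count could be 0. This favoured knockout counts below wild type, and it need not weigh equally on both sets. Among lost peaks 214 of 1441 held 1 wild-type nucleosome, against 259 of 3131 kept peaks, and the median counts were 4 and 5. All comparisons of H3K4me2 with wild type share the 1 wild-type list.

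By site, 786 of 1441 lost peaks (54.5%) had fewer nucleosomes in Cdx2 knockout than in wild type, against 45.0% of all 17306 marked HNF4A peaks and 39.3% of kept peaks. More nucleosomes were found at 253 (17.6%), against 22.3% of all marked peaks. No nucleosome was left at 208 lost peaks (14.4%, interval 12.7% to 16.4%), against 9.59% of all marked peaks and 3.35% of kept peaks. More lost peaks than kept peaks therefore dropped out of the Cdx2 knockout H3K4me2 list altogether. This was not particular to the set. The share was 12.4% (11.6% to 13.2%) at lost peaks below the score minimum that met the rest of the rule. At strong marked lost peaks with a CDX2 peak it was 17.7%. These shares were not matched for the wild-type count.

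The 5 lost peaks with the largest drop show how far single sites went. At chromosome 11, 118849297 to 118849719, there were 0 nucleosomes in Cdx2 knockout, 9 in Hnf4a knockout, 0 in each double knockout and 8 in wild type. At chromosome 1, 130219711 to 130220211, only 1.02 kb from a CDX2 peak, there were 0 in Cdx2 knockout, 6 in Hnf4a knockout, 0 in each double knockout and 8 in wild type. At chromosome 9, 61239945 to 61240337, there were 0 in Cdx2 knockout, 7 in Hnf4a knockout, 0 in each double knockout and 6 in wild type. These sites were emptied in all 3 libraries with Cdx2 deleted and stayed marked in Hnf4a knockout. The same held at chromosome 11, 55026920 to 55027476, with 0 nucleosomes in Cdx2 knockout, 8 in Hnf4a knockout, 0 in each double knockout and 6 in wild type. The fifth, at chromosome 4, 107701704 to 107702118, had 2 in Cdx2 knockout, 8 in Hnf4a knockout, 2 and 0 in the double knockouts titled Cdx2-Cdx1 and Cdx2-Hnf4a, and 8 in wild type. With the Hnf4a knockout list cut at a score of 52, the counts there at these 5 sites were 8, 6, 5, 6 and 4. Because these were picked as the largest drops, they show the extreme and not the typical site.

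Some lost peaks went the other way. At chromosome 17, 31441786 to 31442275, there were 9 nucleosomes in Cdx2 knockout, 5 in Hnf4a knockout, 7 and 6 in the double knockouts titled Cdx2-Cdx1 and Cdx2-Hnf4a, and 5 in wild type. At chromosome 18, 76194841 to 76195249, there were 8 in Cdx2 knockout, 6 in Hnf4a knockout, 7 and 8 in these double knockouts, and 4 in wild type. Cut at a score of 52, the Hnf4a knockout list had 5 at each of the 2 sites. At these sites HNF4A was no longer called in Cdx2 knockout while H3K4me2 was called more often there. The 5 sites with the largest gains had 8 or 9 nucleosomes in Cdx2 knockout and 4 to 6 in wild type.

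The decline of H3K4me2 was larger at the stronger lost peaks. The scaled ratio of Cdx2 knockout to wild type at lost peaks was 0.783 at scores under 200 (993 sites), 0.741 at 200 to 300 (298 sites) and 0.651 at 300 or more (150 sites, 0.570 to 0.742). At kept peaks of the same scores it was 0.907, 0.885 and 0.858. Lost over kept was 0.863, 0.837 and 0.759 (0.663 to 0.868) across the 3 ranges, so the difference from kept peaks held within each score range. The ranges are wide and were not matched for wild-type mark. At 300 or more, 26 of 150 lost and 486 of 1178 kept peaks scored 500 or more. Mean wild-type counts there were 3.72 and 4.73 nucleosomes. The difference also held within ranges of the wild-type count, which were not matched for score. Lost over kept was 0.711 at sites with 1 wild-type nucleosome, 0.728 at 2 to 3, 0.861 at 4 to 5 and 0.933 (0.874 to 0.996) at 6 or more. Lost peaks at sites densely covered in wild type differed least from kept peaks.

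**Figure D2:**
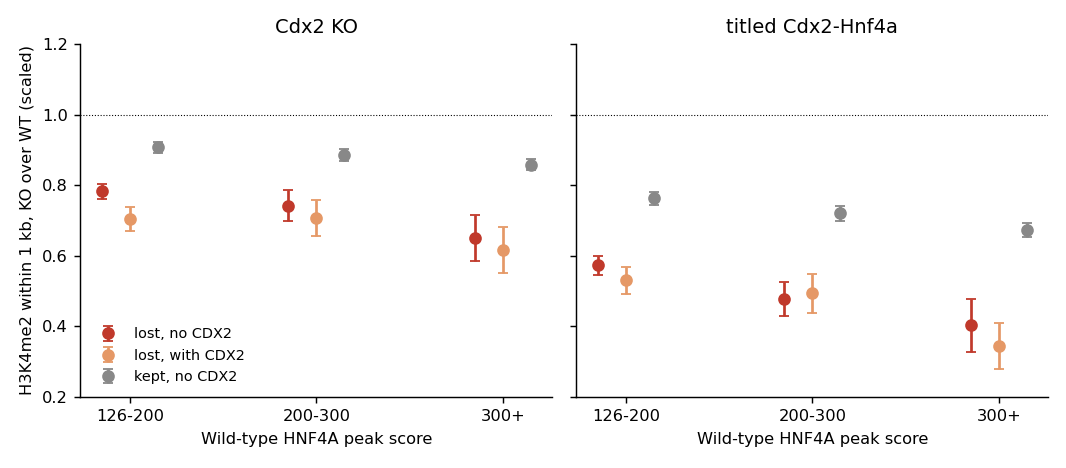
Scaled ratio of H3K4me2 nucleosomes within 1 kb, knockout over wild type (vertical axis, no unit), by wild-type HNF4A score (horizontal axis) for lost peaks without CDX2, lost peaks with CDX2 and kept peaks without CDX2, in Cdx2 knockout and in the double knockout titled Cdx2-Hnf4a. Bars are between-site 95% intervals, and lost peaks without CDX2 lay below kept peaks in every score range, reaching 0.651 in Cdx2 knockout and 0.402 in the double knockout at scores of 300 or more.

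In Hnf4a knockout the ratio at the lost peaks depended on the score limit of the lists. With the list as deposited the scaled ratio was 0.773 at lost peaks and 0.699 at kept peaks, values that carry the lower score limit of that list. With all lists cut at a nucleosome score of 52 it was 1.02 at lost peaks (0.978 to 1.05) and 1.02 at kept peaks, and lost over kept was 0.997 (0.954 to 1.04). At that cut, 451 of 1433 lost peaks with a wild-type nucleosome left (31.5%) had fewer nucleosomes in Hnf4a knockout than in wild type, against 32.2% of all marked peaks at that cut, and 481 (33.6%) had more, against 32.4%. Both shares were close to those of all marked peaks. With the list as deposited, 1086 lost peaks (75.4%) had more, against 70.8% of all marked peaks, 137 (9.51%) had fewer, against 11.2%, and 1 (0.0694%) had none, against 0.358%. Set against Hnf4a knockout at the same cut, Cdx2 knockout had 0.746 times the nucleosomes at lost peaks (0.718 to 0.777) and 0.861 times at kept peaks.

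After scaling, both double knockouts had less H3K4me2 at the lost peaks than Cdx2 knockout. For the library titled Cdx2-Cdx1 the direction turned without scaling, with means of 3.20 nucleosomes in that library and 3.15 in Cdx2 knockout, and unscaled ratios to wild type of 0.822 and 0.811. In the library titled Cdx2-Cdx1 the ratio to wild type was 0.706 at lost peaks (0.679 to 0.734) and 0.831 at kept peaks (0.812 to 0.851). It was 0.927 times the Cdx2 knockout value at lost peaks (0.890 to 0.966) and 0.942 times at kept peaks (0.920 to 0.965). In the library titled Cdx2-Hnf4a the ratio to wild type was 0.536 at lost peaks (0.514 to 0.560) and 0.717 at kept peaks (0.699 to 0.734), and lost over kept was 0.748 (0.712 to 0.786). That library held 0.704 times the Cdx2 knockout nucleosomes at lost peaks (0.673 to 0.736) and 0.812 times at kept peaks. It was thus the lowest of the 4 knockout libraries at the lost peaks.

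Counted by site, 1029 lost peaks (71.4%) had fewer nucleosomes in the library titled Cdx2-Hnf4a than in wild type, against 57.5% of all marked peaks, and 161 (11.2%) had more, against 19.0%. No nucleosome was left there at 499 (34.6%), against 20.1% of all marked peaks and 375 of 3131 kept peaks. In the library titled Cdx2-Cdx1, 797 (55.3%) had fewer, against 43.5% of all marked peaks, 294 (20.4%) had more, against 28.1%, and 211 (14.6%) had none, against 8.99%. The ratio at lost peaks in the library titled Cdx2-Hnf4a also went down with HNF4A score, with 0.572 under 200, 0.476 at 200 to 300 and 0.402 at 300 or more, and it was 0.762, 0.720 and 0.673 at kept peaks of the same scores.

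Close to the HNF4A centre, the flanking nucleosomes were fewer in the libraries lacking Cdx2. The central ones differed by less than counting error, though not always by less than the between-site interval. With lists cut at a score of 52, nucleosomes centred 100 to 250 bp from the centre of lost peaks had a ratio to wild type of 0.695 in Cdx2 knockout (0.643 to 0.751), 0.590 in the library titled Cdx2-Cdx1 and 0.396 in the library titled Cdx2-Hnf4a (0.361 to 0.433). Within 50 bp of the centre the ratio was 1.05 in Cdx2 knockout (0.886 to 1.24), 1.13 in the library titled Cdx2-Cdx1 (0.958 to 1.33) and 0.873 in the library titled Cdx2-Hnf4a (0.734 to 1.04). The between-site intervals were 0.937 to 1.16 in Cdx2 knockout, 1.003 to 1.25 in the library titled Cdx2-Cdx1 and 0.767 to 0.979 in the library titled Cdx2-Hnf4a. The flank over the centre was thus 0.663 times its wild-type value in Cdx2 knockout (0.552 to 0.795), 0.523 times in the library titled Cdx2-Cdx1 and 0.453 times in the library titled Cdx2-Hnf4a (0.374 to 0.550). Hnf4a knockout moved in the same direction by less, with a flank ratio of 0.922 (0.857 to 0.992), a centre ratio of 1.18 (1.00 to 1.40) and a flank over centre of 0.778 times its wild-type value (0.651 to 0.930).

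The same shape was seen at kept peaks. Their flank ratio was 0.845 in Cdx2 knockout, and flank over centre was 0.775 in Cdx2 knockout (0.687 to 0.875) and 0.825 in Hnf4a knockout (0.731 to 0.931). Lost over kept was 0.823 in the flank (0.752 to 0.901) and 0.963 at the centre (0.789 to 1.18). In the library titled Cdx2-Hnf4a it was 0.610 in the flank (0.550 to 0.676) and 0.770 at the centre (0.630 to 0.943). Per 100 sites and 50 bp, scaled to wild type, the bin of 150 to 200 bp at lost peaks held 26.5 nucleosomes in Cdx2 knockout, 36.2 in Hnf4a knockout, 22.1 and 14.0 in the double knockouts titled Cdx2-Cdx1 and Cdx2-Hnf4a, and 37.6 in wild type. The central bin of 0 to 50 bp held 19.3 in Cdx2 knockout, 21.2 in Hnf4a knockout, 20.5 and 15.9 in those double knockouts, and 18.2 in wild type. The dip between flanking nucleosomes was therefore shallower in all 4 knockout libraries, Hnf4a knockout included, and the profile of the library titled Cdx2-Hnf4a was nearly flat near the centre.

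**Figure D3:**
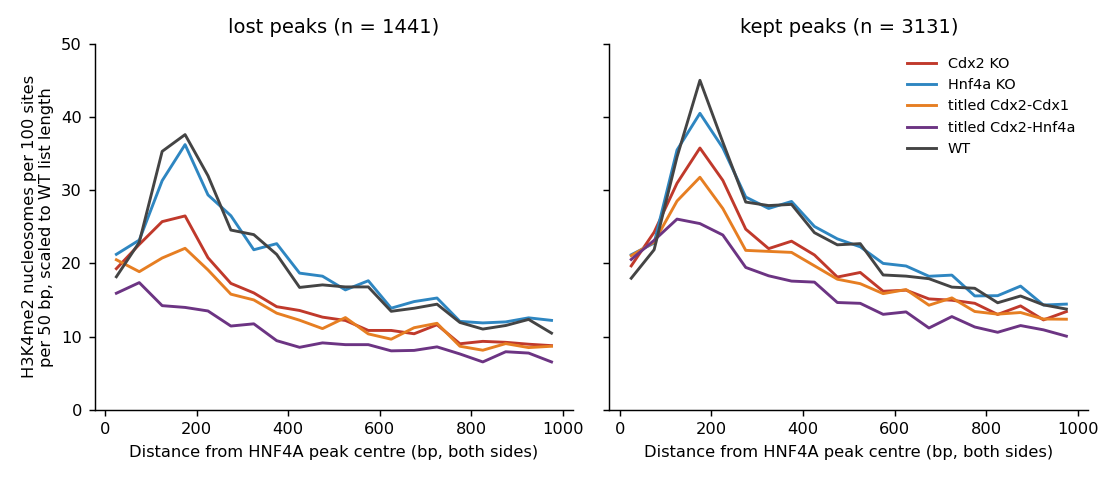
H3K4me2 nucleosomes per 100 sites and 50 bp, scaled to the wild-type list length (vertical axis), by distance from the HNF4A peak centre in bp, both sides combined (horizontal axis), at lost peaks (left) and kept peaks (right). The crest at 150 to 200 bp of lost peaks stood at 26.5 in Cdx2 knockout and 14.0 in the library titled Cdx2-Hnf4a, against 37.6 in wild type, while Hnf4a knockout reached 36.2.

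Farther out the difference became smaller but was still present. In Cdx2 knockout the ratio to wild type around lost peaks was 0.786 within 250 bp, 0.710 at 250 to 500 bp, 0.764 at 500 to 1000 bp, 0.824 at 1 to 2 kb and 0.855 at 2 to 5 kb. Around kept peaks it was 0.911, 0.831, 0.882, 0.907 and 0.946 over the same distances. Lost peaks were below kept peaks in every ring, so the lower mark was not limited to the immediate HNF4A position. The ratios of the library titled Cdx2-Hnf4a around lost peaks were 0.513, 0.486, 0.596, 0.677 and 0.721.

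**Figure D4:**
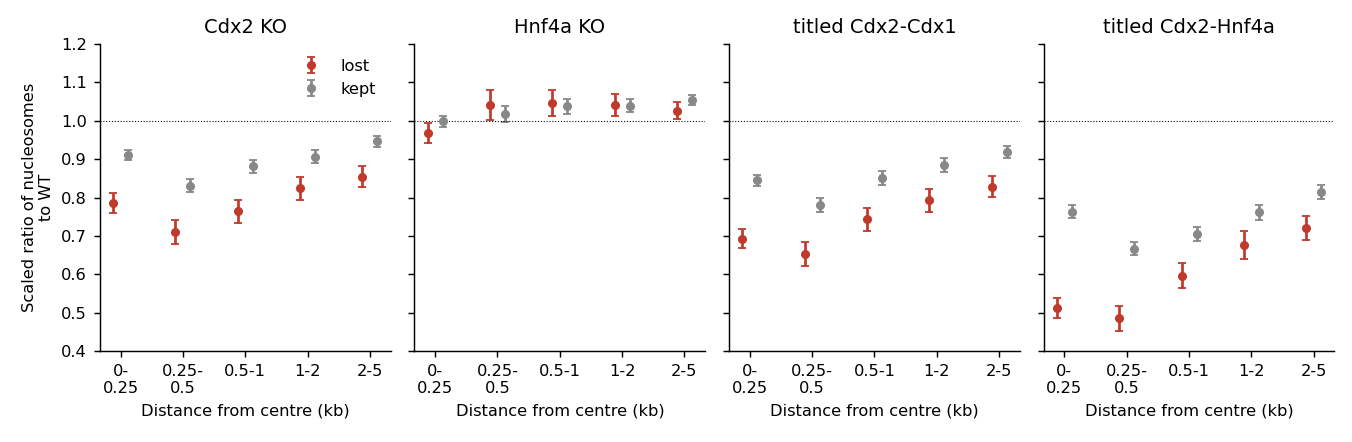
Scaled ratio of H3K4me2 nucleosomes, knockout over wild type (vertical axis), in rings of increasing distance from the HNF4A centre in kb (horizontal axis) for lost and kept peaks in each knockout library, with between-site 95% intervals and lists cut at a score of 52. In Cdx2 knockout the lost peaks ranged from 0.710 to 0.855 and the kept peaks from 0.831 to 0.946.

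The scores of the called nucleosomes differed between libraries. At lost peaks the median nucleosome score at the cut of 52 was 225.7 in Cdx2 knockout, 197.3 in Hnf4a knockout, 184.7 and 254.8 in the double knockouts titled Cdx2-Cdx1 and Cdx2-Hnf4a, and 228.2 in wild type. The medians over the whole lists were 249.7 in Cdx2 knockout, 206.8 in Hnf4a knockout, 199.1 and 238.9 in those double knockouts, and 241.6 in wild type. Members were thus below the list median in 4 of the 5 lists and above it in the library titled Cdx2-Hnf4a. At kept peaks it was 301.7 in Cdx2 knockout, 279 in the library titled Cdx2-Hnf4a and 297.8 in wild type.

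The lost peaks had no overlapping CDX2 peak by choice, but many had one close by. The nearest wild-type CDX2 peak of either library was 14.8 kb from the centre of a lost peak (median, interval 12.9 to 16.8 kb), with a range of 281 bp to 893 kb. At kept peaks the median was 16.4 kb. The median over the same 1441 lost peaks rested on wild-type CDX2 replicate 1, since it was 62.4 kb without that library and 19.3 kb without replicate 2. A CDX2 peak was centred within 1 kb of 66 lost peaks (4.58%, 3.56% to 5.79%), within 2 kb of 200 (13.9%), within 10 kb of 593 (41.2%) and within 100 kb of 1331 (92.4%). The shares of kept peaks were 3.90% within 1 kb, 11.3% within 2 kb, 38.4% within 10 kb and 92.4% within 100 kb.

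CDX2 sites called in both wild-type libraries were much farther away. They were at a median of 243.9 kb from lost peaks and 251.9 kb from kept peaks, and within 10 kb of 6.59% of lost peaks (95 of 1441) and 7.09% of kept peaks (222 of 3131). In Hnf4a knockout, whose CDX2 list took no part in the choice, a CDX2 peak overlapped 9 lost peaks (0.625%, 0.286% to 1.18%) and 27 kept peaks (0.862%, 0.569% to 1.25%). It overlapped 13.5% of the 719 strong lost peaks that had a wild-type CDX2 peak. Lost and kept peaks were both chosen to lack a wild-type CDX2 peak, which favoured a low overlap in advance. The intervals of lost and kept peaks overlapped.

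Taken over all scores, the share lost was highest where CDX2 was nearest, but the intervals of the nearest and farthest classes overlapped. Among strong marked peaks without CDX2 it was 36.1% where CDX2 lay under 2 kb away (200 of 554, 32.1% to 40.3%), 31.6% at 2 to 10 kb, 29.6% at 10 to 50 kb, 32.8% at 50 to 100 kb and 31.7% at 100 kb or more (110 of 347, 26.8% to 36.9%). Among peaks of score under 200 it was 53.9% under 2 kb (47.6% to 60.1%), 48.3% at 2 to 10 kb, 45.1% at 10 to 50 kb, 45.04% at 50 to 100 kb and 44.7% at 100 kb or more (37.3% to 52.3%). In this score range the share was highest under 2 kb and nearly level from 10 kb on, and the intervals of its ends overlapped. At scores of 200 to 300 it was 29.1% under 2 kb, 27.9% at 2 to 10 kb and 24.9% at 10 to 50 kb. Farther out it was 27.2% at 50 to 100 kb and 22.6% at 100 kb or more. At 300 or more the nearest class was not the highest. The share there was 12.9% under 2 kb, 10.8% at 2 to 10 kb and 9.95% at 10 to 50 kb. It was 15.1% at 50 to 100 kb and 13.1% at 100 kb or more.

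The ratio of H3K4me2 to wild type was similar at all distances. At lost peaks in Cdx2 knockout it was 0.752 under 2 kb, 0.759 at 2 to 10 kb, 0.770 at 10 to 50 kb, 0.754 at 50 to 100 kb and 0.760 at 100 kb or more. The value under 2 kb was 0.989 times that at 100 kb or more, with an interval of 0.827 to 1.18 (between sites 0.882 to 1.11), so a difference of that size in either direction was not detectable. In the library titled Cdx2-Hnf4a the values at lost peaks lay between 0.530 and 0.544, and under 2 kb over 100 kb or more was 0.975 (0.803 to 1.18). Kept peaks in Cdx2 knockout ranged from 0.867 to 0.896 over the same classes.

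**Figure D5:**
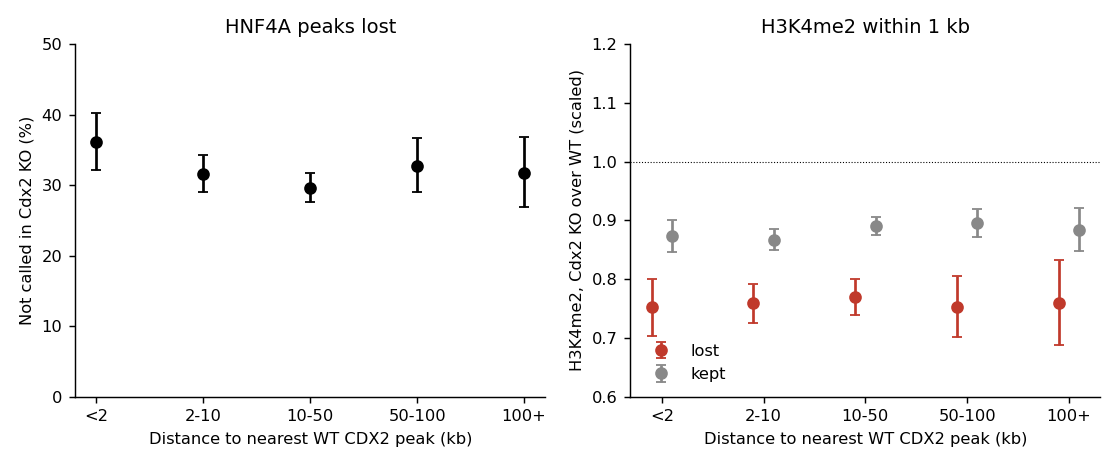
Share of strong marked HNF4A peaks without CDX2 that were lost in Cdx2 knockout, in percent with exact 95% intervals (left), and the scaled H3K4me2 ratio of Cdx2 knockout to wild type at lost and kept peaks with between-site intervals (right), by distance to the nearest wild-type CDX2 peak in kb (horizontal axes). The share lay between 29.6% and 36.1%, and the ratio at lost peaks between 0.752 and 0.770.

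The nearest and farthest members show the spread within these classes. The lost peak nearest to CDX2, on chromosome 7 at 59031423 to 59031645, was 281 bp from it and had 0 nucleosomes in Cdx2 knockout, 3 in Hnf4a knockout, 0 in each double knockout and 2 in wild type. Cut at a score of 52, the Hnf4a knockout list had 1 there. Of the 5 nearest, 3 had fewer nucleosomes in Cdx2 knockout than in wild type, 1 had the same number and 1 had more. The farthest, on chromosome X at 159566761 to 159567002, was 893 kb away and had 2 in Cdx2 knockout, 4 in Hnf4a knockout, 2 and 1 in the double knockouts titled Cdx2-Cdx1 and Cdx2-Hnf4a, and 3 in wild type. Cut at a score of 52, the Hnf4a knockout list had 2 at this site. Of the 5 farthest, 4 lay on chromosome X.

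Over all scores, lost peaks that overlapped CDX2 had a somewhat larger fall. At the 719 strong marked lost peaks with a CDX2 peak, the ratio to wild type was 0.691 in Cdx2 knockout (0.653 to 0.730), 0.678 in the library titled Cdx2-Cdx1 and 0.491 in the library titled Cdx2-Hnf4a. Lost peaks without CDX2 over those with it came to 1.1 in Cdx2 knockout (1.03 to 1.18), 1.04 in the library titled Cdx2-Cdx1 (0.974 to 1.11) and 1.09 in the library titled Cdx2-Hnf4a (1.01 to 1.18). For the library titled Cdx2-Cdx1 the interval included no difference. At scores of 300 or more the Cdx2 knockout comparison was 1.06 (0.869 to 1.28). Against the 7281 lost peaks below the score minimum that met the rest of the rule, whose ratio in Cdx2 knockout was 0.842, the strong lost peaks came to 0.904 in Cdx2 knockout, 0.897 in the library titled Cdx2-Cdx1 and 0.768 in the library titled Cdx2-Hnf4a.

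Lost peaks had a lost neighbour more often than kept peaks did, as a description, since the strong peaks that form the neighbours include the lost peaks themselves. Where another strong HNF4A peak lay within 10 kb, the nearest one was lost for 226 of 536 lost peaks (42.2%, 37.9% to 46.5%) and for 360 of 1151 kept peaks (31.3%, 28.6% to 34.0%), against 35.8% of all strong peaks. Within 50 kb the shares were 40.3% and 31.6%. There were 76 runs of members no more than 10 kb apart, holding 158 peaks in all, and 6 runs held 3 members. Of these 6, the run with the highest HNF4A score, on chromosome 9 from 61239945 to 61254276, began at one of the sites emptied of H3K4me2 in all 3 libraries lacking Cdx2. The run on chromosome 11 from 55021799 to 55031492 also held such a site. By chromosome the share lost ranged from 27.6% on chromosome 2 to 41.4% on chromosome 18 (65 of 157), and on chromosome X 17 of only 34 peaks were lost.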

How the data were processed

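The authors deposited 5 lists of factor peaks and 5 lists of H3K4me2 nucleosomes, with coordinates on mm9, per the submitters' processing notes. Each factor peak has a score as deposited by the authors, none below 50. The sources used here do not give its meaning, the aligner, the caller version, the control or the depth. The peak names carry the word MACS. The nucleosome score is 10 times the −log10 of a p-value, per the file headers. Overlap meant 1 bp or more. Nucleosomes were counted by centre within 1 kb, and ratios were scaled by covered length, with exact binomial intervals (Clopper-Pearson for shares). Between-site intervals treat sites as independent and say nothing of the spread between animals. Each knockout had 1 library, so no p-value was computed between conditions. Named members were the 10 highest scores, the 5 largest falls and rises of H3K4me2 in Cdx2 knockout among 724 members with at least the median wild-type count of 4, the 5 nearest to and farthest from CDX2, and the 3 on either side of the score minimum. Members and lists were chosen with earlier results of these data known. The steps were tested on simulated data. Python 3.11.15, pandas 2.3.3, numpy 2.4.6, scipy 1.17.1 and matplotlib 3.10.9 were used. The input library, motifs and genes near the peaks were not analysed here.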

Additional observations from a re-analysis of the deposited data

How the results depend on the processing

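The lower H3K4me2 at lost peaks in Cdx2 knockout kept its direction under every setting tried, and lost over kept lay under 1 throughout. For Cdx2 knockout the ratio of 0.761 became 0.811 without scaling, 0.711 at a minimum HNF4A score of 200 and 0.810 without scaling at a nucleosome score of 52, a setting chosen after seeing the data. Leaving out a CDX2 library gave 0.747 to 0.759. The Hnf4a knockout ratio of 0.773 turned round to 1.02 at a nucleosome score of 52, 1.03 at 100, 1.45 without scaling and 1.01 without scaling at 52, and was 0.689 within 500 bp, 0.834 within 2 kb and 0.982 by summed scores. The deposited Hnf4a list reaches lower scores than the others. Without a CDX2 library it was 0.762 to 0.774. For the library titled Cdx2-Cdx1 the ratio was 0.735 within 2 kb, 0.822 without scaling, 0.645 at a minimum of 200, 0.735 by summed scores and 0.805 in the added setting (0.699 to 0.705 without a CDX2 library). For the library titled Cdx2-Hnf4a it was 0.504 within 500 bp, 0.580 within 2 kb, 0.609 without scaling, 0.452 at a minimum of 200, 0.655 by summed scores and 0.613 in the added setting (0.528 to 0.535 without a CDX2 library). Lost over kept was 0.818 at a minimum of 200 and 0.851 to 0.860 without a CDX2 library. The share with no nucleosome in Cdx2 knockout was 16.6% within 500 bp, 11.9% within 2 kb, 21.2% at a nucleosome score of 100, 19.0% at a minimum of 200, and 14.7% to 14.8% without a CDX2 library. The set held 448 peaks at a minimum of 200, 150 at 300, and 1479 to 1966 without a CDX2 library. The median distance to CDX2 depended most on the CDX2 list: 62.4 kb without replicate 1, 19.3 kb without replicate 2, 244 kb for sites of both libraries and 104 kb for CDX2 scores of 100 or more. The cause of these shifts was not tested. No paired analysis was possible because only CDX2 in wild type had more than 1 library. Planned counts of motifs, position classes and listed genes were not run, since no mm9 sequence or annotation was used here. Depth is unknown, so loss from a list and shallower sequencing cannot be told apart.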
